A study of Mus musculus with 13 samples.

Results

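The mouse proteasome genes were examined in enriched Sertoli cells, the somatic cells of the seminiferous tubule that nurse developing germ cells. Members were all named features whose symbol begins with *Psm*, followed by a letter from a to g and a digit, and 50 of the 27111 named features in the deposited table matched. By the known place of the encoded protein, 7 were alpha and 7 beta subunits of the core, 6 were ATPases and 11 non-ATPase subunits of the regulatory particle, and 5 were interferon-inducible subunits (*Psmb8*, *Psmb9*, *Psmb10*, *Psme1* and *Psme2*). A further 7 were assembly chaperones, 3 were other activators or inhibitors (*Psme3*, *Psme4* and *Psmf1*) and 2 were tissue-specific subunits (*Psma8* of germ cells and *Psmb11* of the thymic cortex). *Psmc3ip* matched by name alone, since it encodes a partner of meiotic recombinases and no subunit, and *Psme2b* was left without a class.

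RNA was sequenced from 6 control and 7 MSUS males, all adult C57Bl/6J mice (Bl6 wt in the labels) 3 to 5 months of age. MSUS stands for unpredictable maternal separation with unpredictable maternal stress. Pups of that group had been taken from the dam for 3 h on each day between postnatal days 1 and 14, and the dams were stressed by a cold swim or restraint meanwhile, while controls were not handled in this way. Each library came from the testes of 1 male, from which large diploid cells with a strong MitoTracker signal had been sorted, so the preparation is enriched in Sertoli cells by physical properties and not by a lineage marker. The control and MSUS libraries carried no replicate number in common.

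The proteasome is the protease of the cytosol and nucleus that degrades proteins tagged with ubiquitin. Its core is a barrel of alpha and beta rings with the catalytic sites in the beta subunits *Psmb5*, *Psmb6* and *Psmb7*, and the regulatory particle on its ends binds, unfolds and threads in the substrate. Under interferon-gamma and in many leukocytes *Psmb8*, *Psmb9* and *Psmb10* take the places of *Psmb5*, *Psmb6* and *Psmb7* in newly built cores, and *Psme1* with *Psme2* forms the activator PA28. In meiotic germ cells *Psma8* takes the place of *Psma7*, which gives the spermatoproteasome.

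Sequence upstream of the RefSeq transcription start is shown for a pair of constitutive catalytic subunits, for *Psmb10*, the only immune catalytic subunit with more than traces of RNA, and for *Psmb3*, the core subunit with the smallest p-value. The sequences are RefSeq's for GRCm38.p6, run 5′ to 3′ toward the start site, and stop before the first base that GENCODE vM21 places in an exon. Capitals mark a match to a motif. The motifs searched in the 250 bases before the start, on either strand, were the core of the antioxidant response element bound by *Nfe2l1* and *Nfe2l2* (TGACNNNGC), the element bound by interferon regulatory factors (GAAANNGAAA) and the interferon-gamma activated site (TTCNNNGAA).
Psmb5, chr14:54618023-54618245, minus strand: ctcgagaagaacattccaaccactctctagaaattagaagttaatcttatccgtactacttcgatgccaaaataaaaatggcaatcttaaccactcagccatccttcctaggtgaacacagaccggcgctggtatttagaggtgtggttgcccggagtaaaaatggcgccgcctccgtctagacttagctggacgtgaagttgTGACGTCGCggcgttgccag
Psmb6, chr11:70525107-70525356, plus strand: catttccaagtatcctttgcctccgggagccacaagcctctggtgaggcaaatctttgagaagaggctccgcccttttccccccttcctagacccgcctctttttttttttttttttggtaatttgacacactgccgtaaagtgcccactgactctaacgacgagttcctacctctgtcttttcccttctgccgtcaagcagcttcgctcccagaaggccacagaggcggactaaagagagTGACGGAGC
Psmb10, chr8:105938445-105938642, minus strand: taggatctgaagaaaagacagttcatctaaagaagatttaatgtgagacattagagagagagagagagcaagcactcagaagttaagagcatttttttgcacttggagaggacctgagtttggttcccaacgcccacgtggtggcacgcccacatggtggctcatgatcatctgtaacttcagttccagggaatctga
Psmb3, chr11:97703184-97703398, plus strand: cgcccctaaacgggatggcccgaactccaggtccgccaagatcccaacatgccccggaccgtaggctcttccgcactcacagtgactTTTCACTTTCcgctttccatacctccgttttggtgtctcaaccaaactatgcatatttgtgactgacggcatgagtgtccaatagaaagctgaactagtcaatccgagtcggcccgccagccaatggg

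The capitals lie from 47 to 39 bases before the start in *Psmb5* and from 9 to 1 bases before it in *Psmb6*, both matches to the antioxidant response core. In *Psmb3* they lie from 163 to 154 bases before the start and match the interferon regulatory factor element, read on the opposite strand. No motif was matched in the window of *Psmb10*. The table held windows for 42 of the 50 genes. Among these, 5 genes (11.9%) had a match to the antioxidant response core, against 11.5% of the 27025 genes with a window, 3 (7.14%) had the interferon regulatory factor element against 3.46%, and 2 (4.76%) had the interferon-gamma activated site against 8.13%. The windows of *Psmb8* and *Psmb9*, neighbours within the class II region of the major histocompatibility complex on chromosome 17, lie wholly in exons of GENCODE vM21 and are not shown. The *Psmb8* window held the interferon-gamma activated site from 97 to 89 bases before the RefSeq start, and the *Psmb9* window held none of the 3 motifs. A match is a description of the letters.

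Counts on named genes ranged from 9776929 to 14383458 per library, and the 50 genes took between 0.325% and 0.387% of them. Levels are log2 CPM, which are counts scaled to the size of the library, after TMM normalization. The 5 Sertoli cell markers averaged between 10.03 and 10.32 log2 CPM in every library, while the 4 elongated spermatid markers averaged 7.26 to 8.55 and the 7 spermatocyte markers 3.70 to 4.95, so RNA of germ cells was present. The spermatocyte markers had their lowest means in MSUS 1 (3.70) and MSUS 5 (4.10) and their highest in MSUS 11 (4.95), against 4.40 to 4.85 in controls. Libraries had between 34430 and 50273 counts on these genes together. These totals do not say how far counting, rather than the spread between males, limited the value of a single gene.

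To compare genes with each other, levels were set per kb by the median length of the coding transcripts of each gene in GENCODE vM21. In control males the 14 core subunits lay between 4.35 (*Psma2*) and 7.27 log2 CPM per kb (*Psma7*), with a median of 5.57, and the 17 regulatory subunits between 4.36 (*Psmd3*) and 8.28 (*Psmd4*, a ubiquitin receptor), with a median of 5.58. The core thus spanned a range of 7.57-fold and the regulatory particle one of 15.1-fold. The 7 assembly chaperones, which act while the complex is built, lay from 2.40 (*Psmd5*) to 4.29 (*Psmg4*), with a median of 3.37. Immune subunits did not form a group by level, since the PA28 genes *Psme1* (4.99) and *Psme2* (5.54) were at the height of the core, *Psmb10* was at 2.17, and *Psmb9* and *Psmb8* were at the foot of the list. With the longest transcript in place of the median, *Psma3* moved from 4.95 to 4.33 and *Psme1* from 4.99 to 4.34. *Psma7* moved from 7.27 to 7.11 and *Psmd4* from 8.28 to 7.88. The lowest core subunit was then *Psma3*, just below *Psma2* (4.35), so the ranges and ranks depend on the length chosen.

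**Figure D1:**
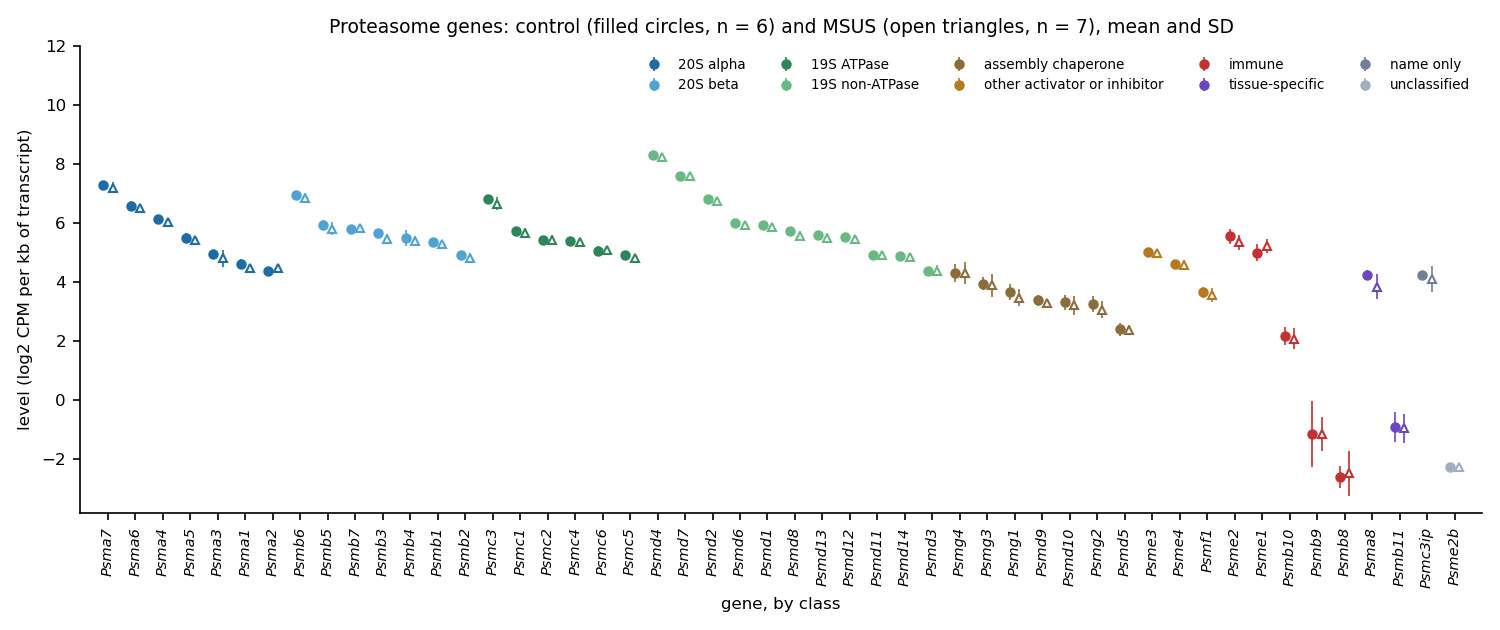
Level of the 50 proteasome genes in log2 CPM per kb of transcript, by class, as the mean of 6 control (filled circles) and 7 MSUS males (open triangles) with SD bars. Core and regulatory subunits lie between 4.35 and 8.28 in controls, chaperones at 4.29 or lower, and *Psmb8*, *Psmb9*, *Psmb11* and *Psme2b* below 0. *Psme2b* had 0 counts in every library, so its point reflects only the prior count and the transcript length.

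Whether MSUS altered the proteasome genes was tested with limma on voom-transformed counts of 14421 named genes, of which 47 were members. *Psmb8*, *Psmb9* and *Psme2b* had too few counts. An unadjusted p-value under 0.05 was obtained for 2 of the 47, or 4.26%, against 5.42% of all genes tested. Both, *Psmb3* and *Psma8*, were lower in MSUS males, a direction in which 2.4% of all genes had such a p-value, while 0 members did so in the other direction, against 3.02%. When p-values were adjusted over the 14421 genes by the Benjamini-Hochberg method, limma left 0 members under 0.05, as it did of all genes (0%), and the smallest adjusted p-value was 0.878. The edgeR quasi-likelihood test and DESeq2 each gave the same genes at an unadjusted p-value under 0.05 and 0 members after adjustment. On leaving out 1 male the number at an unadjusted p-value under 0.05 was 0 without MSUS 26, 1 without control 12, 14 or 24, and 4 without control 10, MSUS 11 or MSUS 23. In no member did the 2 groups separate without overlap, which 0.139% of all genes did.

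Most members had small differences in 1 direction. The log2 fold change was negative in 39 of 47 members (83.0%), with a median of -0.069, while 50.5% of all genes tested were negative, with a median of -0.002. The core had 12 of 14 negative (median -0.09), the regulatory particle 13 of 17 (median -0.058), the chaperones 6 of 7 (median -0.067) and the immune subunits tested 2 of 3 (median -0.069). Genes of a complex are not independent, and no test was run on these counts. With the level of *Malat1*, a nuclear long non-coding RNA, as a covariate, 19 of 47 were negative and the median was 0.027. The mean level of *Malat1* was itself higher in MSUS males, at 10.62 against 9.93 log2 CPM in controls.

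**Figure D2:**
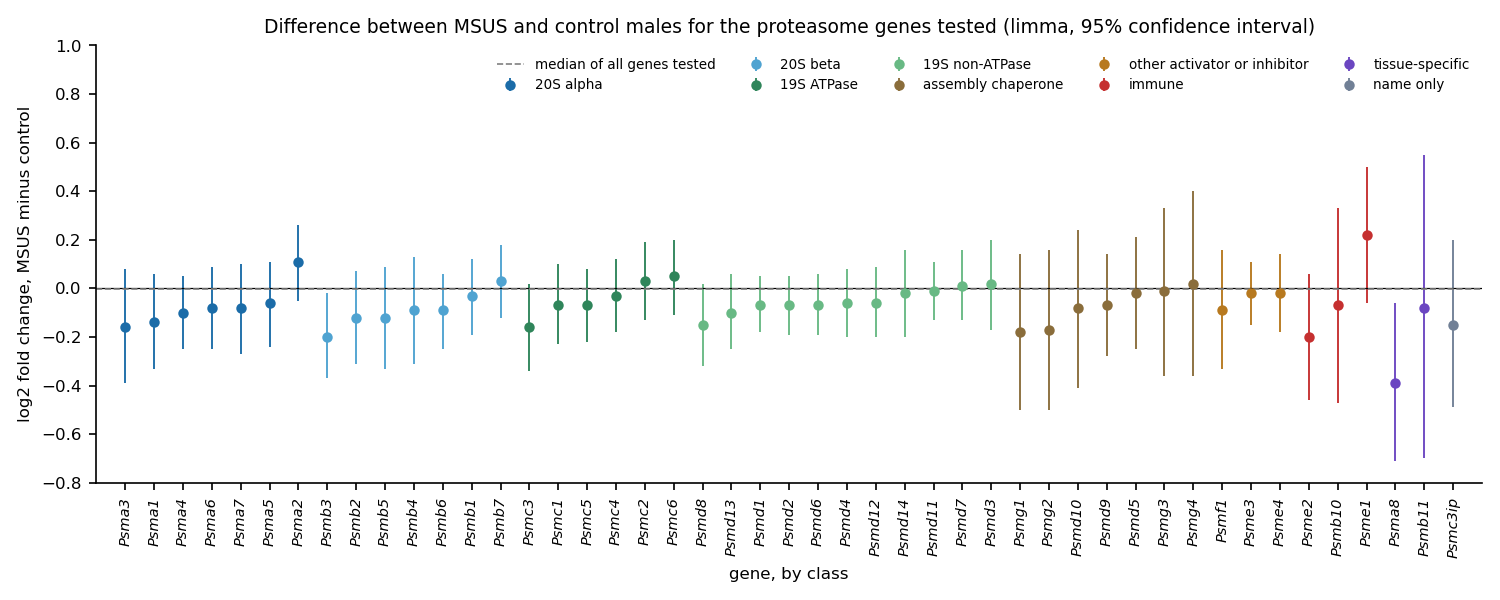
Log2 fold change of MSUS against control males for the 47 proteasome genes tested, by class, with the 95% confidence interval of the limma fit and a dashed line at the median of all genes tested (-0.002). Points lie between -0.39 and 0.22, and the intervals of *Psmb3* and *Psma8* alone leave out 0.

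The alpha subunits form the outer rings of the core and gate its channel. Their log2 fold changes ran from -0.16 (*Psma3*) to 0.11 (*Psma2*), 6 of 7 were negative, and 0 had a p-value under 0.05. The smallest p-value was that of *Psma1*, whose level had a minimum of 4.47, a median of 4.73 and a maximum of 4.94 log2 CPM in controls, and 4.39, 4.59 and 4.78 in MSUS males. The groups overlapped, with 2 of 7 MSUS males below all controls (log2 fold change -0.14, 95% confidence interval -0.33 to 0.06, limma adjusted p = 0.878). *Psma3* had 5 of 7 MSUS males below all controls, but MSUS 23, at 6.22, was above every control, the highest of which had 6.01. Its log2 fold change was -0.16 (95% confidence interval -0.39 to 0.08). *Psma7*, the most abundant alpha subunit per kb, had 7.32 ± 0.15 log2 CPM (SD) over 6 controls and 7.23 ± 0.19 (SD) over 7 MSUS males. Estimated counts that were not whole numbers, a sign of reads shared with other transcripts, occurred in 13 libraries for *Psma2* and *Psma3*. They occurred in at least 10 libraries for *Psma4*, *Psmb11*, *Psmc2*, *Psmd1*, *Psmd5*, *Psmd11* and *Psmf1*. The values of all these genes are less certain.

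Beta subunits form the inner rings. *Psmb3*, a beta subunit without a catalytic site, on chromosome 11 of GRCm38 from 97703399 to 97713500, had a minimum of 5.21, a median of 5.26 and a maximum of 5.38 log2 CPM in controls. In MSUS males these were 4.76, 5.04 and 5.25. All 7 MSUS males were below the control mean of 5.28 and 4 were below every control, with MSUS 26 lowest. This gave a log2 fold change of -0.20 with a standard error of 0.08 (95% confidence interval -0.37 to -0.02, limma adjusted p = 0.878). Leaving out 1 male at a time gave values from -0.22 to -0.13, and the unadjusted p-value was no longer under 0.05 without control 14, control 24 or MSUS 26. With the spermatocyte markers as covariate the log2 fold change was -0.21 (95% confidence interval -0.41 to -0.02). *Malat1* as covariate gave -0.13 (-0.34 to 0.08), and the elongated spermatid markers gave -0.24 (-0.40 to -0.09).

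The other 6 beta subunits had log2 fold changes from -0.12 (*Psmb2* and *Psmb5*) to 0.03 (*Psmb7*), each with a confidence interval that held 0. The catalytic subunit *Psmb5*, of the chymotrypsin-like site, had 5.54 ± 0.17 log2 CPM (SD) over 6 controls and 5.41 ± 0.21 (SD) over 7 MSUS males. *Psmb6*, of the caspase-like site and the most abundant beta subunit per kb, had 6.62 ± 0.11 and 6.52 ± 0.14, and *Psmb7*, of the trypsin-like site, had 5.99 ± 0.14 and 6.02 ± 0.09. In all 3 the difference was smaller than the SD between controls. *Psmb2*, the least abundant per kb, had 4 of 7 MSUS males below all controls and MSUS 13 above them (95% confidence interval of the log2 fold change -0.31 to 0.07).

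The 6 ATPases of the regulatory particle unfold the substrate. *Psmc3* had the smallest p-value among them, with a minimum of 7.42, a median of 7.50 and a maximum of 7.61 log2 CPM in controls, and 7.10, 7.26 and 7.72 in MSUS males. The control values were close together (SD 0.07), whereas MSUS males spread more widely (SD 0.22), with 4 of 7 below all controls and MSUS 11 above them. The difference was -0.16 on the log2 scale (95% confidence interval -0.34 to 0.02, limma adjusted p = 0.878). Without MSUS 11 it was -0.23 (95% confidence interval -0.38 to -0.08). The mean of the spermatocyte markers as covariate gave -0.05 (-0.20 to 0.10). *Malat1* as covariate gave -0.06 (-0.27 to 0.15), and the elongated spermatid markers gave -0.20 (-0.38 to -0.02). *Psmc3* was the most abundant ATPase per kb and *Psmc5* the least, at 6.81 and 4.89 log2 CPM per kb in controls. The remaining 5 ATPases had log2 fold changes between -0.07 and 0.05.

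Among the 11 non-ATPase subunits, 9 had a negative log2 fold change and 0 a p-value under 0.05. *Psmd8*, a structural subunit of the lid, had a minimum of 6.20, a median of 6.28 and a maximum of 6.55 log2 CPM in controls, and 5.94, 6.19 and 6.38 in MSUS males, 4 of which were below all controls. Its log2 fold change was -0.15 (95% confidence interval -0.32 to 0.02, limma adjusted p = 0.878), and -0.19 without MSUS 11 (-0.36 to -0.02). With the spermatocyte markers as covariate it was -0.06 (-0.22 to 0.10), and with *Malat1* -0.01 (-0.18 to 0.17). The elongated spermatid markers as covariate gave -0.18 (-0.35 to -0.02). The abundant ubiquitin receptor *Psmd4* had 8.70 ± 0.10 log2 CPM (SD) over 6 controls and 8.63 ± 0.13 (SD) over 7 MSUS males. *Psmd7* of the lid had 8.23 ± 0.10 and 8.24 ± 0.14, and *Psmd14*, the deubiquitinating enzyme that clips the ubiquitin chain off the substrate, had 5.48 ± 0.14 and 5.46 ± 0.15. The least abundant per kb, *Psmd3*, had a log2 fold change of 0.02. Across all 31 core and regulatory subunits the 95% confidence intervals stayed between -0.39 and 0.26.

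Of the immune catalytic subunits, *Psmb8* and *Psmb9* were nearly absent and *Psmb10* was low. *Psmb8* had 0 to 2 counts in control and 0 to 4 in MSUS libraries, where *Psmb5*, whose place it takes, had 408 to 618 and 360 to 541. *Psmb9* had 1 to 15 counts in controls and 1 to 10 in MSUS males, against 973 to 1359 and 911 to 1126 for its counterpart *Psmb6*. *Psmb10* was measured well enough to test, with 55 to 84 counts in controls and 32 to 83 in MSUS males, against 518 to 938 and 662 to 796 for *Psmb7*. Its level was 12.2-fold below that of *Psmb7* per kb in controls. In log2 CPM *Psmb10* had a minimum of 2.16, a median of 2.59 and a maximum of 2.97 in controls, and 1.84, 2.59 and 2.88 in MSUS males, and all but MSUS 23 and MSUS 26 lay within the range of controls (log2 fold change -0.07, 95% confidence interval -0.47 to 0.33).

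The log2 ratio of each immune subunit to its constitutive counterpart was compared between the groups over all 1716 assignments of the 13 males, which can give a p-value no smaller than 0.000583. The difference of MSUS minus control was 0.25 for *Psmb8* to *Psmb5* (exact permutation test, two-sided, p = 0.546), 0.08 for *Psmb9* to *Psmb6* (exact p = 0.872) and -0.14 for *Psmb10* to *Psmb7* (exact p = 0.549). After adjustment over 4 ratios, counting that of *Psma8* below, the p-values were 0.732, 0.872 and 0.732. Leaving out 1 male moved the differences between 0.04 (without MSUS 5) and 0.41 (without MSUS 13) for *Psmb8*, between -0.19 (without control 22) and 0.37 (without control 14) for *Psmb9*, and between -0.25 (without control 12) and 0.00 (without control 14) for *Psmb10*. At the counts of *Psmb8* and *Psmb9* a change would have to be large to be detectable. The ratio of *Psmb10* to *Psmb7* was -3.43 ± 0.42 (SD) over 6 controls and -3.57 ± 0.38 (SD) over 7 MSUS males.

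Since immune subunits are abundant in leukocytes, the markers of these cells are given beside them. Of 8 macrophage markers only *Mrc1* passed the count filter, with 3962 to 6974 counts, and the other 7 had at most 10 counts in any library, with *Lyz2* at 0 in all 13. The 8 pan-leukocyte and lymphoid markers summed to 33 to 53 counts in controls and 38 to 63 in MSUS males, mostly of *Il7r* (21 to 51), while *Ptprc* had 0 to 5 and *Nkg7* was at 0 in all 13. The mean of the macrophage markers had a Pearson r between -0.35 and 0.41 and a Spearman rho between -0.31 and 0.35 with the 5 immune subunits over 13 males, with adjusted p-values from 0.451 to 0.679 (permutation test, 6 relations including that of *Psma8*). Since 7 of the 8 markers, *Psmb8* and *Psmb9* had few counts, nothing is drawn from these correlations.

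The PA28 genes, unlike the immune catalytic subunits, had levels of the core. *Psme1*, on chromosome 14 from 55578123 to 55581529, had a minimum of 4.07, a median of 4.48 and a maximum of 4.85 log2 CPM in controls, and 4.46, 4.64 and 5.04 in MSUS males. *Psme2*, on the same chromosome from 55587441 to 55591113, had 4.96, 5.36 and 5.72 in controls and 4.84, 5.10 and 5.55 in MSUS males. The 2 genes encode subunits of the same ring, but their differences had opposite signs, with 6 of 7 MSUS males above the control mean for *Psme1* (log2 fold change 0.22, 95% confidence interval -0.06 to 0.50) and 6 of 7 below it for *Psme2* (log2 fold change -0.20, 95% confidence interval -0.46 to 0.06). Neither passed the test. Their log2 ratio, examined after the values were seen and hence without a test, was -0.86 ± 0.38 (SD) over 6 controls and -0.43 ± 0.25 (SD) over 7 MSUS males, with 3 of 7 MSUS males above all controls. *Psme2* had an unadjusted p-value under 0.05 without control 10 (log2 fold change -0.29) or without MSUS 1 (-0.27), and a log2 fold change of 0.05 with *Malat1* as covariate. That of *Psme1* was 0.13 without control 12, 0.10 with *Malat1* and 0.06 with the spermatocyte markers as covariate.

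**Figure D3:**
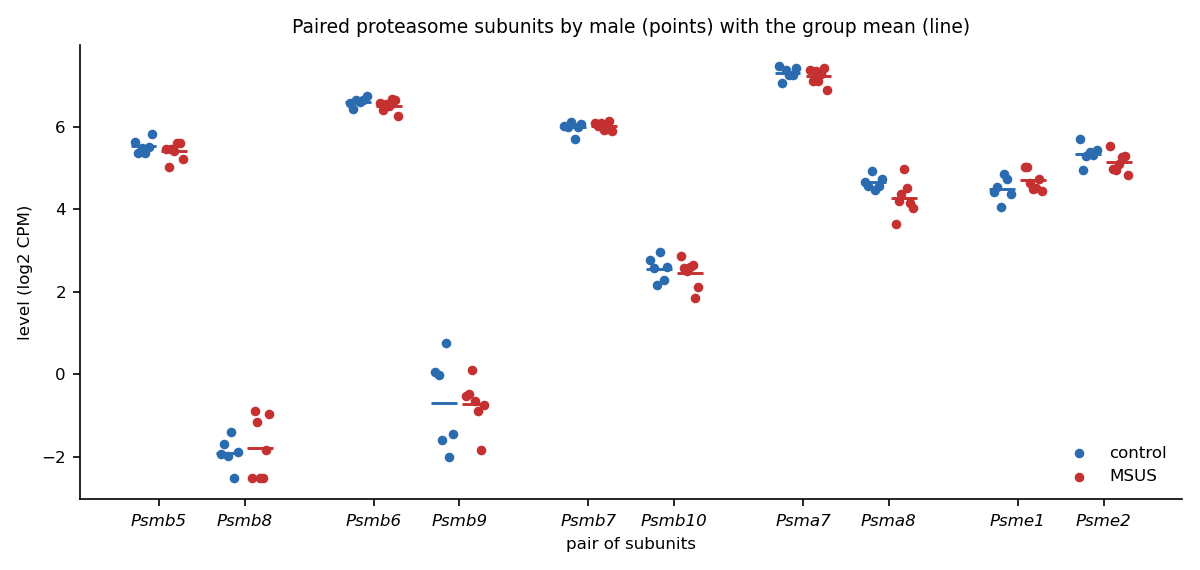
Level in log2 CPM of constitutive catalytic subunits and their immune counterparts, of *Psma7* and *Psma8*, and of the PA28 subunits, with 1 point per male (6 control, 7 MSUS) and a line at the group mean. *Psmb8* and *Psmb9* lie below 1 in every male while *Psmb5*, *Psmb6* and *Psmb7* lie above 5.

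*Psma8*, the alpha subunit of meiotic germ cells, on chromosome 18, had the largest difference of the 47 members tested. Its level had a minimum of 4.47, a median of 4.62 and a maximum of 4.94 log2 CPM in controls, and 3.65, 4.21 and 4.98 in MSUS males. In MSUS males 5 of 7 were below all controls, with MSUS 1 lowest, and MSUS 11 was above all of them. The resulting log2 fold change was -0.39 with a standard error of 0.15 (95% confidence interval -0.71 to -0.06, limma adjusted p = 0.878). Leaving out 1 male at a time gave values from -0.51 to -0.28, and the unadjusted p-value was no longer under 0.05 without control 12, MSUS 1 or MSUS 26. Per kb, *Psma8* was 8.28-fold below *Psma7* in controls. The log2 ratio of *Psma8* to *Psma7* was -2.66 ± 0.16 (SD) over 6 controls and -2.95 ± 0.48 (SD) over 7 MSUS males, a difference of -0.30 within the spread between males (exact permutation test, two-sided, p = 0.191, adjusted over 4 ratios p = 0.732). Without MSUS 11 the difference was -0.43 (exact p = 0.00649), and without MSUS 1 it was -0.17 (exact p = 0.348).

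The level of *Psma8* ran in parallel with the mean of the 7 spermatocyte markers over 13 males, with a Pearson r of 0.89 (permutation test, p = 4e-05, adjusted p = 0.00024 over 6 relations) and a Spearman rho of 0.85 (permutation test, p = 0.00041). Without MSUS 1 and MSUS 5, the males farthest from the median of the markers, r was 0.81. Within the groups r was 0.58 in controls (permutation test, p = 0.229) and 0.90 in MSUS males. With the marker mean as covariate the log2 fold change of *Psma8* was -0.11 (95% confidence interval -0.34 to 0.12). *Malat1* as covariate gave -0.24 (-0.64 to 0.16), and the elongated spermatid markers gave -0.46 (-0.78 to -0.13). In bulk samples such as these, fewer cells of a type and less RNA per cell cannot be told apart. The sort kept cells with a diploid Hoechst signal, a gate meant to leave out haploid and tetraploid germ cells, and where the spermatocyte RNA in the preparations came from was not tested. *Psma7*, plotted beside it, had its lowest level in MSUS 26 (6.91) and stood at 7.38 in MSUS 1, where *Psma8* was lowest.

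**Figure D4:**
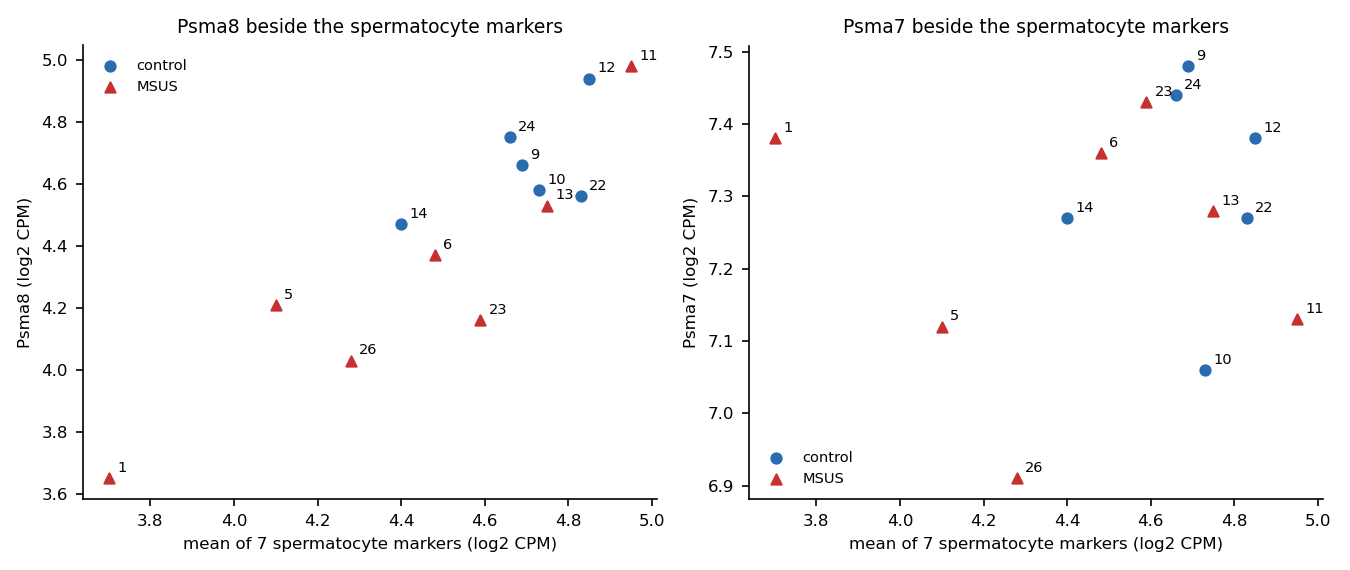
Level of *Psma8* (left) and *Psma7* (right) in log2 CPM against the mean of 7 spermatocyte markers in log2 CPM, with 1 point per male, labelled by replicate number, for 6 control (circles) and 7 MSUS males (triangles). *Psma8* rises with the markers from 3.65 in MSUS 1 to 4.98 in MSUS 11, and no such order is seen for *Psma7*.

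*Psmb11*, the beta subunit of thymic cortical epithelium, had 12 to 45 estimated counts in controls and 11 to 34 in MSUS males. None of its values was a whole number in any of the 13 libraries, so its reads were shared with other transcripts and the gene's own level is uncertain (log2 fold change -0.08, 95% confidence interval -0.70 to 0.55). *Psmc3ip*, the recombination partner that is no subunit, had a log2 fold change of -0.15 (95% confidence interval -0.49 to 0.20) and 0.16 with the spermatocyte markers as covariate. *Psme2b* had 0 counts in all 13 libraries, so its level lay below what these libraries could measure.

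For the other activators and the inhibitor the 95% confidence intervals held 0. *Psme3*, the nuclear activator of the PA28 family, had 6.42 ± 0.07 log2 CPM (SD) over 6 controls and 6.40 ± 0.11 (SD) over 7 MSUS males, with a 95% confidence interval of the log2 fold change from -0.15 to 0.11. *Psme4*, the activator PA200 that acts on acetylated histones in spermatids, had 7.29 ± 0.12 and 7.27 ± 0.16, with an interval from -0.18 to 0.14. *Psmf1*, the inhibitor PI31, had a log2 fold change of -0.09 (95% confidence interval -0.33 to 0.16). Among the 7 assembly chaperones, *Psmg1*, which pairs with *Psmg2* to build the alpha ring, had the smallest p-value, with 3.55 ± 0.27 log2 CPM (SD) over 6 controls and 3.34 ± 0.28 (SD) over 7 MSUS males (log2 fold change -0.18, limma adjusted p = 0.895). *Psmg2* had -0.17, while *Psmg4*, the most abundant per kb, had 0.02 and *Psmd5*, the least, had -0.02.

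To see which males carried the small negative shift, the deviation of each of the 31 core and regulatory subunits from its mean over 13 males was averaged within each male. In controls the mean deviations were 0.07 in control 9, -0.06 in control 10, 0.09 in control 12, -0.01 in control 14, 0.00 in control 22 and 0.12 in control 24. In MSUS males they were -0.01 in MSUS 1, -0.11 in MSUS 5, 0.01 in MSUS 6, -0.04 in MSUS 11, 0.06 in MSUS 13, 0.05 in MSUS 23 and -0.18 in MSUS 26. The groups overlapped, with MSUS 26 lowest and control 24 highest. MSUS 26 was the lowest of all 13 males for 12 of the 31 subunits, and control 24 the highest for 10. Without MSUS 26, 0 members had a limma p-value under 0.05, 35 of 47 were negative and the median log2 fold change was -0.038.

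*Malat1* is given beside these deviations. Its level was lowest in control 24 (9.16 log2 CPM), control 9 (9.46) and control 12 (9.84), the males with the highest mean deviations of the subunits, and highest in MSUS 5 (11.27) and MSUS 26 (11.07), the males with the lowest. Between these the order was loose. MSUS 6, at 10.81, had a deviation of 0.01, MSUS 23, at 10.36, had 0.05, and control 10, at 10.70, had -0.06. *Malat1* in controls ranged from 9.16 to 10.70, with 9.93 ± 0.56 (mean and SD). MSUS males ranged from 10.16 to 11.27, with 10.62 ± 0.43. With *Malat1* as covariate 13 of the 31 subunits were negative, the core median was 0.061, and *Psma2* alone had an unadjusted p-value under 0.05 (log2 fold change 0.19). The covariate also lowered the number of all genes with such a p-value, from 781 to 395. *Malat1* was on average higher in MSUS males, so as covariate it takes up part of the group difference. Its level and the group cannot be fully told apart here, and its part in the result was not tested.

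**Figure D5:**
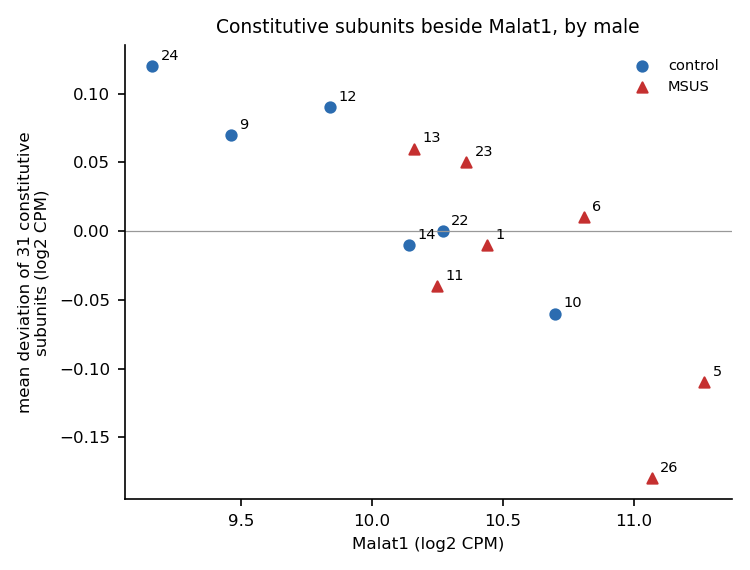
Mean deviation of the 31 core and regulatory subunits from their means over 13 males (log2 CPM) against the level of *Malat1* (log2 CPM), with 1 point per male, labelled by replicate number, for 6 control (circles) and 7 MSUS males (triangles). The males with the highest *Malat1*, MSUS 5 and MSUS 26, have the lowest deviations, -0.11 and -0.18.

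MSUS males also spread more widely than controls. The SD between males was larger in the MSUS group for 22 of the 31 subunits (71.0%), with a median SD of 0.143 log2 CPM against 0.108 in controls. Of all genes tested 64.4% had the larger SD in MSUS males, with medians of 0.239 and 0.198. No test of spread was run.

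Genes that work with the proteasome without being part of it were taken as a list of 21 partners, of which 20 were in the table and tested. A p-value under 0.05 was obtained for 1 of them (5%, against 5.42% of all genes). This was *Txnl1*, a thioredoxin-like protein bound to the regulatory particle, at 5.69 ± 0.08 log2 CPM (SD) over 6 controls and 5.48 ± 0.10 (SD) over 7 MSUS males, with all 7 MSUS males below the control mean (log2 fold change -0.20, standard error 0.07, limma adjusted p = 0.878). *Nfe2l1*, the transcription factor that raises proteasome genes when the protease is short, had 8.44 ± 0.07 and 8.40 ± 0.12, *Pomp*, the maturation chaperone of the core, 6.30 ± 0.07 and 6.24 ± 0.05, and *Usp14*, a deubiquitinating enzyme of the particle, 5.88 ± 0.14 and 5.76 ± 0.09. In all, 13 of the 20 were negative, with a median of -0.016.

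Among 12 genes of interferon-gamma signalling and class I antigen presentation, 11 passed the count filter and 0 had a limma p-value under 0.05, with 8 positive and 3 negative. The receptor chain *Ifngr2* was at 8.04 ± 0.14 log2 CPM in controls (SD, n = 6), while *Irf1*, a transcription factor induced by interferon-gamma, was at 2.40 ± 0.99 and varied between males more than any other gene of the list in controls. *Tap1*, a transporter gene that neighbours *Psmb9*, had 2.58 ± 0.23 (SD) over 6 controls and 2.49 ± 0.30 (SD) over 7 MSUS males. *Erap1*, a peptide-trimming protease, and *Ifngr2* had the smallest p-values, with log2 fold changes of 0.23 and -0.14 (limma adjusted p = 0.878 for both).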

How the data were processed

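RNA of sorted Sertoli cells from 6 control and 7 MSUS males was sequenced from 5 ng RNA with a stranded kit, and groups were taken from the sample labels. The authors trimmed the reads with Trim Galore 0.6.5, assigned them to GENCODE vM23 transcripts with Salmon 1.1.0 and deposited estimated counts per gene, not normalized. How transcripts were summed to genes is not given in the sources used here. Of the 54281 features, 27170 have no gene name and held 20.7% to 26.7% of the counts of a library; they were left out. No column (0) lacked a matching sample.

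Estimated counts were rounded. Following the study's methods, counts were TMM-normalized and fitted with limma 3.58.1 (voom, edgeR 4.0.16, R 4.3.3) with no covariate. The study names no count filter, so filterByExpr, applied before the fit, was a choice made here. The rounding and leaving out features with no gene name were also choices made here. P-values were adjusted by Benjamini-Hochberg over all genes tested. A call is an unadjusted p-value under 0.05, the study's threshold. Log2 CPM was computed with a prior count of 2. Ratios were compared by exact permutation tests and correlations by 100000 permutations. The 78 pairs of libraries differed, in mean square per gene, by 6.77 to 61.1 times what sampling alone gives. Estimated counts within 0.01 of a whole number were taken as whole; values were not whole in at least 10 libraries for 9 members and in fewer for 7. Coordinates and lengths come from GENCODE vM21 (GRCm38), upstream sequence from RefSeq (GRCm38.p6). Scripts were tested on simulated data.

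Genes named were those with a p-value under 0.05, the catalytic pairs, *Psma7*, *Psma8*, the activators, and in each class the gene with the smallest p-value and the most and least abundant. The ratio of *Psme1* to *Psme2*, *Psma3*, *Psmd7*, *Psmd14*, *Psmg2* and the examples from the pathway lists were added after values were seen. The members, lists and covariates were chosen with earlier results of these data known. Alternatives were edgeR's quasi-likelihood test, DESeq2 1.42.0, sample quality weights, other normalizations and filters, 4 covariates and leaving out each male. Whether the males share litters was not analysed here. The tests treated males as independent, so p-values may be too small if some males share a litter. The level of 1 gene of the interferon list is not reported here.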

Additional observations from a re-analysis of the deposited data

Results flagged for a closer look

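Dixon's test, which sets the distance of the most extreme male from the next against the whole range of values, was applied at its 95% level in each group to the levels of the 47 genes tested and to 6 other measures (the mean deviation of the subunits, the spermatocyte mean, *Malat1* and the ratios to constitutive counterparts of *Psmb9*, *Psmb10* and *Psma8*). It marked 5 of 106 sets of values, where chance gives about 5.3. *Psmb1*, a beta subunit, was at 5.80 log2 CPM in MSUS 26, against 6.11 to 6.21 in the other MSUS males. *Psmb7*, of the trypsin-like site, was at 5.71 in control 14, against 6.0 to 6.12 in the other controls. *Psmd3*, of the regulatory lid, was at 5.07 in MSUS 1, against 5.46 to 5.63. *Psmd6*, also of the lid, was at 6.34 in control 10, against 6.46 to 6.52. *Psme3*, the nuclear activator, was at 6.17 in MSUS 5, against 6.38 to 6.51. The low values fell in 5 different males.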

How the results depend on the processing

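No adjusted p-value of a member was under 0.05 in any of the 26 other fits. The count of members with p under 0.05 was 2 as reported, 4 with sample quality weights, 5 with the elongated spermatid covariate, 1 with the spermatocyte covariate, 1 with the *Malat1* covariate, and from 0 to 4 on leaving out 1 male; the other settings gave 2. With *Malat1* as covariate the medians turned to 0.027 over all members and to 0.061 in the core, and single genes turned to 0.01 (*Psma1*), 0.05 (*Psme2*), 0.00 (*Psmb10*), 0.11 (*Psmb5*), 0.04 (*Psmb6*) and 0.03 (*Psmg1*). *Psmc3ip* turned to 0.16 with the spermatocyte covariate. *Psmb10* lay between -0.15 and 0.02 on leaving out 1 male, at 0.00 without control 14 or MSUS 26. The cause of these changes was not tested. Over the 47 members tested and these fits, 1143 of 1222 values kept their direction. Of the 79 that turned, 22 did so with the *Malat1* covariate, 40 on leaving out 1 male and 17 under the other settings. The ratio of *Psmb9* to *Psmb6* lay between -0.19 and 0.37 and that of *Psma8* to *Psma7* between -0.43 and -0.17 over the fits that leave out 1 male. With the macrophage markers r was -0.14 for *Psmb9* and 0.17 for *Psme2* within controls and 0.71 and -0.53 within MSUS males, and -0.05 for *Psme1* without the 2 farthest males. With the spermatocyte markers it was 0.58 for *Psma8* within controls. No paired analysis was run, because the replicate numbers are unique to each library and the labels used name no pairs. Counts of *Psmb8* and *Psmb9* are too low to show any but a large change, and the intervals of the core and regulatory subunits, up to 0.39 from 0, limit what could be seen there.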
